A study of Mus musculus with 3 samples.

Results

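Interleukin-1 family signalling was followed through 9 of the 32285 genes counted in mouse dorsal skin. They were chosen by name as members of the family, with earlier results of these data known. The ligands were the agonists Il1a and Il1b, the receptor antagonist Il1rn and the related cytokines Il18 and Il33. The receptors were the signalling receptor Il1r1, the decoy receptor Il1r2, the shared accessory chain Il1rap, and Il1rl1, which encodes the IL-33 receptor ST2. All 9 were found in the matrices. Droplet-based 3' single-cell RNA-seq was available for 3 libraries, 1 per condition, each from wild-type C57BL/6J mice labelled female. Their stated age, 8 weeks, is given in the paper for the mice as purchased, and the age at excision is not stated there. CON skin was not irradiated and, per the study's design, received vehicle. UV skin received mixed UVA (0.60 mW/cm2) and UVB (3.5 mW/cm2) on alternate days over 12 weeks with vehicle, and Rux skin the same irradiation followed each time by a 1.5% ointment of ruxolitinib, an inhibitor of the kinases JAK1 and JAK2. Full-thickness skin was excised 24 h after the last exposure in UV and Rux, and the number of mice behind a library is not given in the sources used here. With 1 library per condition no difference has a replicate check, so no test was made and no p-value is given.

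IL-1α and IL-1β bind IL1R1, which then recruits IL1RAP and signals through MYD88 to NF-κB. IL1RN occupies the same receptor without signalling, and IL1R2 binds the ligands but lacks a signalling domain. IL-33, a nuclear cytokine of stromal and barrier cells, binds IL1RL1 and uses the same accessory chain, and mast cells, regulatory T cells and type 2 innate lymphoid cells are its best known responders. IL-18 has a receptor of its own. In skin, keratinocytes are a known store of IL-1α and IL-18, and myeloid cells are a known source of IL-1β.

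The libraries held 13170, 12411 and 11287 cells and 165337289, 133972374 and 131570327 UMIs (molecular tags, each marking 1 captured transcript) in CON, UV and Rux, and 10885, 10327 and 9386 cells were kept after filters, with medians of 7567, 7664 and 9443 UMIs. Although the mice are labelled female, the Y-linked gene Ddx3y was at 110, 116 and 121 CPM over the kept cells, and Xist had 13, 14 and 13 UMIs. The pairs of libraries shared 28 to 50 cell barcodes, at most 0.403% of a library. Cells were clustered without the 9 genes, and 50 of 58 clusters were named from marker genes: fibroblast-like (FB), basal (KB), suprabasal (KS) and other keratinocyte-like (KER), hair-matrix-like (HM), vascular and lymphatic endothelial-like (VEC, LEC), pericyte-like (PCY), Schwann-like (SCH), melanocyte-like (MEL), neutrophil-like (NEU), macrophage-like (MAC), monocyte-like (MONO), a cluster between macrophage and monocyte markers (MAC/MONO), a dendritic and Langerhans-like class (DC/LC), mast-cell-like (MC), regulatory-T-like (TREG), αβ-T-like (TAB), γδ-T-like (GDT), ILC2-like and a few smaller classes. KER clusters are those in which the leading epithelial lists, HM among them, were not separated. Levels are CPM, the UMIs of a gene summed over a class and scaled to 1000000 UMIs of that class. Intervals in parentheses are exact 95% intervals, Poisson for CPM, binomial for shares of cells and conditional binomial for log2 ratios, and they cover counting error only. The values of 3 libraries are always given in the order CON, UV, Rux.

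Promoter sequence is shown first for the genes on which the results turn, Il1rl1, Il1a and Il1b. The promoter windows bear on genes that differ between classes (Il1rl1) or share one (Il1a and Il1b). Il1rl1 has 2 RefSeq starts, and the distal start is known as the one used in mast cells and other blood cells, the proximal one as the one used in fibroblasts. Each line gives the 250 bases before a start, 5′ to 3′ in the direction of transcription, from RefSeq on GRCm38.p6, with motif matches in capitals.
Il1rl1 distal, chr1:40429320-40429569, plus strand: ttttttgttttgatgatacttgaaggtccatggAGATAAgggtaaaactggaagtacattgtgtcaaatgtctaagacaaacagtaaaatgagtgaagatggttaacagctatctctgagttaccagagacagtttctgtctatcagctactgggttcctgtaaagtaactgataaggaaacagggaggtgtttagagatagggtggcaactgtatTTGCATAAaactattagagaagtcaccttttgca
Il1rl1 proximal, chr1:40439379-40439628, plus strand: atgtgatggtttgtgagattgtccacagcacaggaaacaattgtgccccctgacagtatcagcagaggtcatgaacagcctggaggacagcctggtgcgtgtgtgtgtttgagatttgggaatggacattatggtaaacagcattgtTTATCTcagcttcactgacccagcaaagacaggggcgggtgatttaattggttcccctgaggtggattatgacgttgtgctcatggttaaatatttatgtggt
Il1a, chr2:129309973-129310222, minus strand: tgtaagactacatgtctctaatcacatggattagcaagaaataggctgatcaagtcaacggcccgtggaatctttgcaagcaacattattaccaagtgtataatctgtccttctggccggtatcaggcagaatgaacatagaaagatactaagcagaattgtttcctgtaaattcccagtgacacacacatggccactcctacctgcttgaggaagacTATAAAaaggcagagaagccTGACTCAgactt
Il1b, chr2:129371140-129371389, minus strand: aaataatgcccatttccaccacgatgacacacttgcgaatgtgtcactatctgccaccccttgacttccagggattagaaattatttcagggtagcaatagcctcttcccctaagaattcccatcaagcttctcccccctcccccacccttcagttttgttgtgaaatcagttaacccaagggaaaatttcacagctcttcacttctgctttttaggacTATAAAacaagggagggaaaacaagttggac
Capitals mark 4 kinds of match. The motif of GATA factors, AGATAA or its reverse complement TTATCT, lay 217 to 212 bases before the distal Il1rl1 start and 103 to 98 bases before the proximal one. A C/EBP motif, TTGCNNAA, lay 34 to 27 bases before the distal start. The TATA box, read as TATAAA, lay 32 to 27 bases before the start of Il1a and 31 to 26 before that of Il1b, and an AP-1 motif, TGANTCA, 12 to 6 bases before the start of Il1a. Over 32851 RefSeq promoter windows of this length, searched on both strands, these motifs were present in 9.99%, 9.56%, 12.4% and 6.75%. An NF-κB motif, present in 1.41% of windows, was in none of the 4 windows shown, which says only that its letters are not there. Counts of 3' ends do not show which start a transcript used.

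The 9 genes lie on 5 chromosomes. Il1r2 (chr1:40074079-40125231), Il1r1 (chr1:40225080-40317257) and Il1rl1 (chr1:40429570-40465415) are neighbours on chromosome 1, and Il1rn (chr2:24336853-24351494), Il1a (chr2:129299610-129309972) and Il1b (chr2:129364570-129371139) lie on chromosome 2, in GENCODE M21 coordinates of GRCm38. Il18 is at chr9:50554827-50581840, Il1rap at chr16:26581704-26730117 and Il33 at chr19:29925114-29960718.

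The heat map of levels by class and library showed a division of the family between cell types. Il1b, Il1a and Il1rn were highest in myeloid classes in each library, Il1r1 in FB-like or PCY-like cells and Il1rl1 in MC-like cells, among classes of at least 50 cells. Il33 was highest in PCY-like cells of CON, myogenic-progenitor-like (MP) cells of UV and FB-like cells of Rux, and Il1rap was above 0 in each of these classes.

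**Figure D1:**
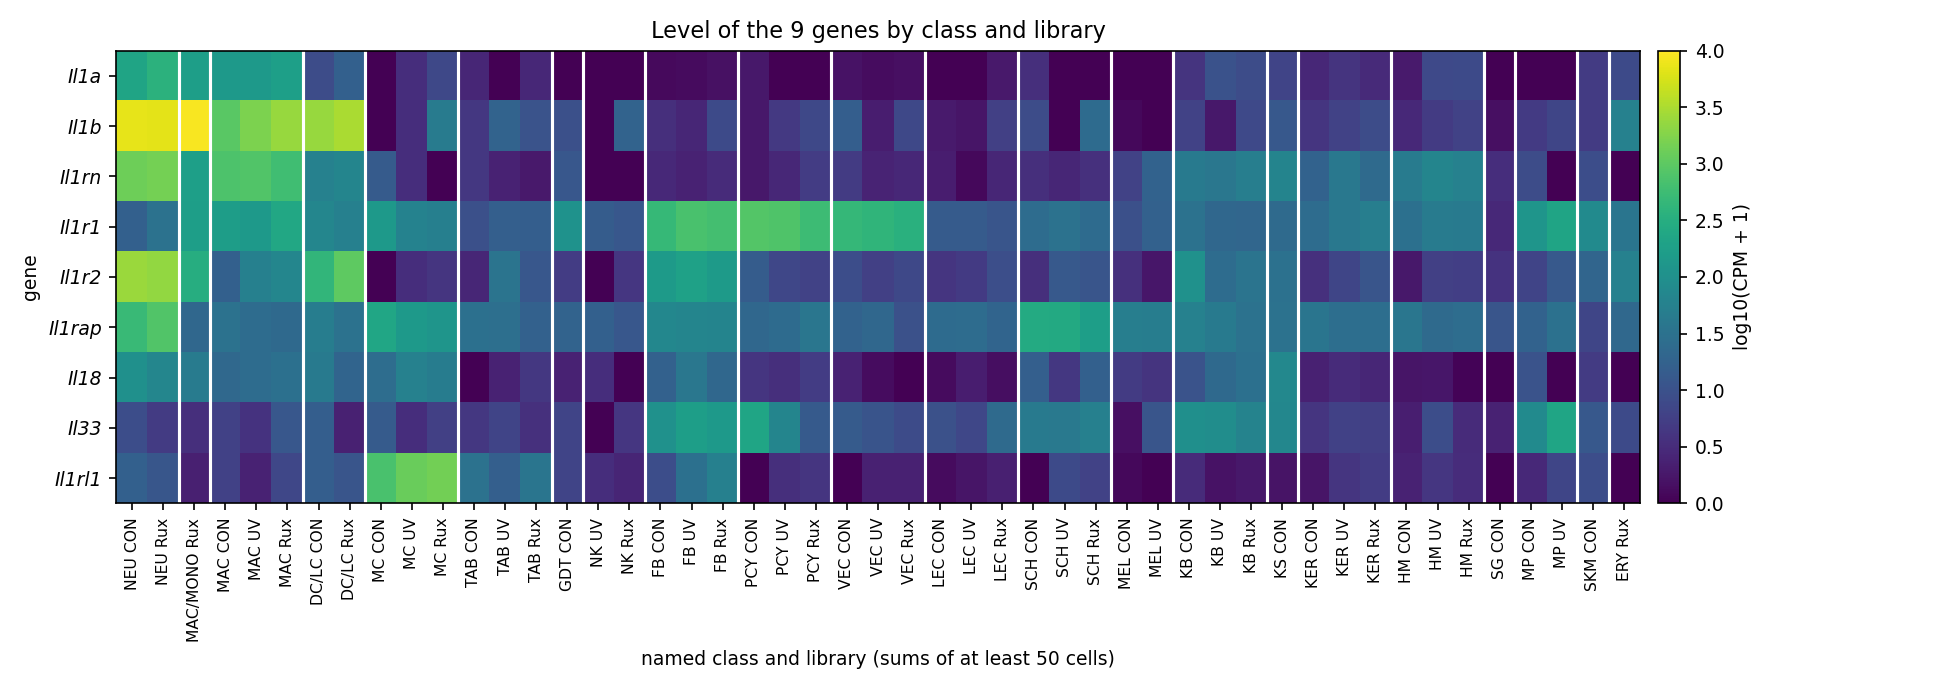
Heat map of log10(CPM + 1) of the 9 genes (rows) in each named class and library with at least 50 cells (columns), with lighter colours for higher levels. Il1b is brightest in the NEU and MAC/MONO columns, Il1rl1 in the MC columns, and Il1r1 in the FB, PCY and VEC columns.

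Il1b was carried almost wholly by a small myeloid population. The NEU, MAC, MONO, MAC/MONO and DC/LC classes together with an unnamed cluster led by Spp1, Mmp13 and Arg1 (i13) made up 2.92, 2.41 and 7.10% of cells and held 93.5, 92.9 and 97% of all Il1b UMIs. The level was 8133, 4387 and 9084 CPM in MAC/MONO-like cells, lowest in UV, and 93.3, 93.8 and 97% of these cells had a UMI. NEU-like cells (50, 21 and 223 cells) had 7228, 6754 and 6832 CPM, DC/LC-like cells 2408, 2262 and 3132 CPM, and cluster i13, which had no CON cells, 4876 and 6181 CPM in UV and Rux. The NEU level was close in the 3 libraries, with a log2 ratio of Rux over CON of -0.08 (-0.18 to 0.02). Over all kept cells Il1b was at 52.1, 43.8 and 253 CPM, and the same myeloid cells numbered 318, 249 and 666. Over these myeloid cells together it was at 3535, 2692 and 6026 CPM, and 55, 61.9 and 88% of them had a UMI. In Rux both their number and this pooled level were above those of CON and UV. Their make-up differed too, with 45, 48 and 167 MAC/MONO-like cells beside the NEU-like numbers above. The part of make-up in the pooled level was not tested.

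In MAC-like cells the Il1b level within the class was lowest in CON and highest in Rux. It was 936, 1616 and 2423 CPM, a log2 ratio of 0.79 (0.65 to 0.92) for UV over CON and 1.37 (1.25 to 1.49) for Rux over CON, and the share of MAC-like cells with an Il1b UMI was 25.3, 43 and 66.2%, or 23.3, 42 and 61.3% with every cell thinned to 2000 UMIs. The class had 2 clusters. In i2, led by Retnla, C1q and MHC class II genes, Il1b was at 1843, 2368 and 2733 CPM in 55, 70 and 122 cells, and in i5, led by Pf4, Mrc1 and F13a1, at 227, 43.4 and 415 CPM in 95, 44 and 20 cells. The cluster with the higher level thus also held more of the MAC-like cells in Rux than in CON, and within i2 alone the log2 ratio of Rux over CON was 0.57 (0.44 to 0.70).

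Outside the myeloid cells Il1b was at 3.42, 3.18 and 7.98 CPM. FB-like cells had 53, 63 and 353 UMIs, or 2.46, 1.69 and 6.91 CPM, mostly 1 UMI per cell, with at most 2, 4 and 5 UMIs in a cell. The Rux value exceeded that of UV in 6 of 6 FB-like clusters with counting intervals above 0. The neutrophil marker list moved with it: its 6 genes summed to 4.03, 3.68 and 21.8 CPM in FB-like cells, with 5, 5 and 6 of them above 0, and the part of RNA from other cells in the Il1b value was not tested. VEC-like cells had 50, 6 and 14 UMIs, and in CON 22 of them lay in 1 cell. MC-like cells had 0, 1 and 28 UMIs, and in Rux 20 of the 28 lay in 1 cell.

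Il1a, the other agonist, was also highest in myeloid cells. NEU-like cells had 218, 477 and 365 CPM from 28, 20 and 274 UMIs, MAC/MONO-like cells 165, 67.5 and 171 CPM and MAC-like cells 138, 141 and 181 CPM. The log2 ratio of Rux over CON was 0.72 (0.18 to 1.36) in NEU-like and 0.39 (0.04 to 0.75) in MAC-like cells, and in the latter UV over CON was 0.03 (-0.37 to 0.43). In NEU-like cells 16 of the 28 UMIs of CON lay in 1 cell, and 13 of the 20 of UV in 1 cell. The intervals do not cover this spread between cells. Cluster i13 had 418 CPM (286 to 591) in the 11 cells of UV and 975 CPM (897 to 1057) in Rux, the highest Rux value among these, where 50 of 64 cells had a UMI. Il1a was among the genes that lead this cluster, although it was not used to form it. The MAC-like values and their ratios leave this cluster out.

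Keratinocyte-like cells had little Il1a RNA by comparison. KB-like cells were at 2.95, 9.22 and 7.65 CPM from 24, 34 and 28 UMIs and HM-like cells at 0.920, 6.64 and 6.81 CPM from 7, 79 and 77 UMIs, with log2 ratios of UV over CON of 1.64 (0.85 to 2.46) and 2.76 (1.74 to 4.21). In KER-like cells the level was 1.80, 2.95 and 2.02 CPM.

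Il1rn, the antagonist, was found in myeloid and in epithelial cells. NEU-like cells had 1326, 620.5 and 1451 CPM, from 170, 26 and 1088 UMIs, MAC-like cells 756, 823 and 583 CPM and MAC/MONO-like cells 335, 451 and 180.5 CPM. Cluster i13 had 1059 and 1062 CPM in UV and Rux. Cells outside the myeloid classes, at far lower levels but in far greater number, still held 71, 73.5 and 38.9% of the Il1rn UMIs.

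In KER-like cells Il1rn was at 17.2, 39.3 and 23.3 CPM, a log2 ratio of 1.19 (1.08 to 1.31) for UV over CON and -0.76 (-0.89 to -0.62) for Rux over UV. Weighting the 6 KER clusters by their summed CON UMIs in each library left 1.11 for UV over CON. UV was higher than CON in 4 of the 5 clusters compared, in 2 of them with an interval above 0, and the lowest log2 ratio was -0.03. The 2 were the dividing cluster c6 at 20.6, 52.6 and 30.5 CPM and c7, led by Ccnd2 and Shh, at 19.7, 50.3 and 30.2 CPM. In both, the HM marker list scored first, without a clear lead over the next epithelial list. KB-like cells were at 43.4, 37.1 and 50.8 CPM and HM-like cells at 45, 65.8 and 56.8 CPM, with log2 ratios of UV over CON of -0.22 (-0.52 to 0.07) and 0.55 (0.37 to 0.74). The KB-like class held 2 clusters in different shares, c18 with 478, 24 and 77 cells and c36 with 82, 82 and 56. In c36, the KB cluster with enough cells for UV over CON, the Il1rn ratio was 0.60 (0.06 to 1.20), opposite in sign to that of the class.

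The balance of antagonist to agonist transcripts differed between myeloid and epithelial cells. UMIs of Il1rn were counted per UMI of Il1a and Il1b together, a count ratio that is not scaled for capture of each transcript. The ratio was 0.178, 0.0858 and 0.202 in NEU-like, 0.704, 0.469 and 0.224 in MAC-like and 0.0404, 0.101 and 0.0195 in MAC/MONO-like cells. It was 5.35, 3.70 and 3.58 in KB-like, 3.47, 4.87 and 2.42 in KER-like and 16.3, 6.17 and 4.73 in HM-like cells. The agonist UMIs numbered 66, 37 and 52 in KB-like, 321, 290 and 258 in KER-like and 21, 127 and 136 in HM-like cells. The neutrophil marker list summed to 13.4, 8.68 and 71.6 CPM in KB-like and 3.99, 1.87 and 18.3 CPM in KER-like cells. In HM-like cells it summed to 3.02, 2.69 and 12.9 CPM. The part of RNA from other cells in these ratios was not tested. In MAC-like cells the ratio was lower in UV than in CON and lower again in Rux, where Il1b was at its highest and Il1rn at its lowest. The class held i2 and i5 in different shares. Within i2, log2 ratios of UV over CON were 0.37 for Il1rn, 0.36 for Il1b and 0.05 for Il1a. The lower ratio in UV was thus not seen within i2. For Rux over UV they were -0.80, 0.21 and 0.29. The part of make-up in the class ratio was not tested. These MAC-like values leave out cluster i13, which had MAC as first list and 0, 11 and 64 cells. The Il1rn level of i13 in Rux, given above, lay above that of MAC-like cells.

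**Figure D2:**
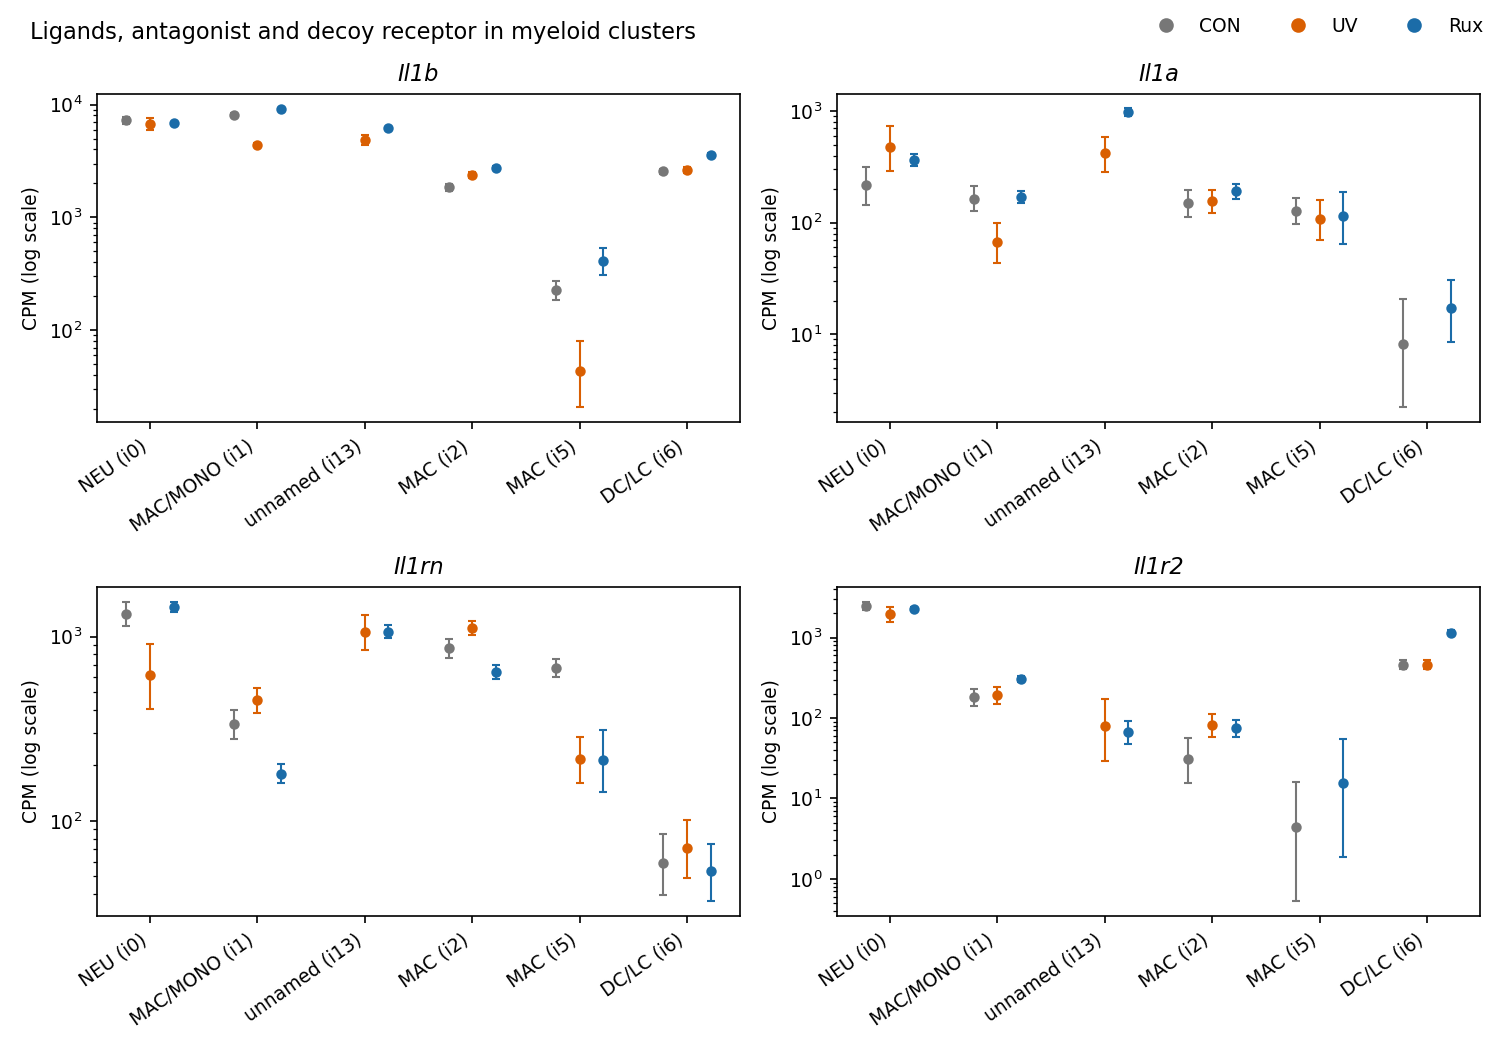
CPM (log axis) of Il1b, Il1a, Il1rn and Il1r2 in 6 myeloid clusters and 3 libraries, with exact 95% Poisson intervals for counting error as bars; clusters without a UMI are not drawn. The neutrophil-like cluster i0 is high in all 4 genes, the unnamed cluster i13 has the highest Il1a in Rux, 975 CPM, whereas in UV i0 has 477 and i13 418 CPM, and Il1r2 is high in i0 and in the dendritic and Langerhans-like cluster i6.

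Il18 was low in most classes, with a median over the named classes of at least 50 cells of 3.96, 2.36 and 9.97 CPM. NEU-like cells had 101, 47.7 and 68 CPM, from 13, 2 and 51 UMIs, and MC-like cells 2, 24 and 29 UMIs. Cells of a small suprabasal-like cluster led by Lce1m and Lor (c41), cornified-layer genes, had 2861, 660.5 and 793 CPM, from 391, 48 and 59 UMIs in 14, 9 and 11 of 18, 15 and 22 cells. The CON interval of 2585 to 3159.5 CPM lay above those of UV (487 to 876) and Rux (604 to 1023), over few cells. In all KS-like cells of CON, which include c41, 101 of 442 Il18 UMIs lay in 1 cell and 70.4% in the 5 cells with the most. The intervals do not cover this spread between cells. KB-like cells had 9.46, 22 and 29.2 CPM, higher in UV than in CON by a log2 ratio of 1.21 (0.75 to 1.68). Within c36, the KB cluster with enough cells for UV over CON, the ratio was 2.83, above that of the class. For Rux over CON it ran from 1.58 to 3.24 in the 2 KB clusters.

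FB-like cells held much of the Il18, and their summed difference went with which fibroblast clusters were present. Their Il18 was at 16.3, 36.9 and 20.6 CPM, a log2 ratio of 1.18 (1.01 to 1.35) for UV over CON, and they held 31.5, 79.7 and 67.6% of all Il18 UMIs. Within clusters the levels were much closer. Cluster c5, led by Sntg1, Smpd3 and Cxcl13, had 89.7, 94.6 and 98.4 CPM in 133, 1091 and 354 cells, and c4, led by Sult1e1, Smpd3 and C3, had 36.5, 49.7 and 40.9 CPM. Weighted by the summed CON UMIs of the FB clusters, the log2 ratio was 0.20 for UV over CON.

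Il33 was found in fibroblast-like and in keratinocyte-like cells. FB-like cells had 105, 172 and 141 CPM and held 49, 82 and 88.4% of the Il33 UMIs. In CON the level of KB-like cells, given below, was close to that of FB-like cells. The level was highest among FB clusters in c1, led by Saa3, Timp1, Cxcl5 and Mmp3, at 377, 327 and 305 CPM, and c5 had 183, 167 and 184 CPM. In c2, led by Cthrc1 and Postn, it was 98.6, 180.2 and 88.4 CPM and in c4 62.4, 121 and 68 CPM, so in both the UV level was above CON and Rux lay near CON. Of the 6 clusters compared, 3 were higher and 2 lower in UV than in CON with an interval that did not hold 0. Their log2 ratios ran from -0.42 to 1.70. For Rux over CON, 1 was higher and 2 lower in this way, from -0.31 to 0.62. The highest ratio of each comparison lay in neither c2 nor c4. The sums gave log2 ratios of 0.71 (0.64 to 0.78) for UV over CON and 0.42 (0.35 to 0.49) for Rux over CON, and with clusters weighted as in CON these were 0.13 and -0.20, the second with its direction turned.

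In PCY-like cells Il33 had 223, 64.2 and 12.6 CPM, from 283, 106 and 12 UMIs, the lowest in Rux. The log2 ratio was -1.80 (-2.14 to -1.47) for UV over CON and -2.29 (-3.34 to -1.48) for Rux over UV. These UMIs sat in few cells, 22, 20 and 7 of 213, 249 and 118, and 67.8, 83 and 83.3% of them in the 5 cells with the most. The share of PCY-like cells with an Il33 UMI was 10.3, 8.03 and 5.93%, or 8.70, 5.15 and 2.70% thinned, and the unthinned intervals of 6.59 to 15.2% in CON and 2.42 to 11.8% in Rux overlap. In the cells with an Il33 UMI the fibroblast gene Col1a1 was at 1200, 1864 and 507 CPM, against 213, 306 and 283 CPM in the rest, and the smooth-muscle gene Myh11 at 1200, 1547 and 1436 against 2570, 2396 and 2476 CPM. The FB marker list summed to 2064, 2562 and 2326 CPM in PCY-like cells, and the part of fibroblast RNA in the Il33 value was not tested.

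Il33 was also found in epithelial cells. KB-like cells had 98.6, 90.02 and 59.8 CPM, with UV over CON at -0.13 (-0.32 to 0.05) on the log2 scale, and KS-like cells 70.1, 56.1 and 156 CPM in 262, 19 and 40 cells. Of the KB clusters, c18 had 117, 79.7 and 78.4 CPM and c36 25.5, 92.2 and 45.5 CPM. Within c36 the log2 ratio was 1.84 (1.38 to 2.36) for UV over CON, opposite in sign to that of the class, and -1.02 (-1.37 to -0.68) for Rux over UV. In all KB-like cells of UV, 58 of 332 Il33 UMIs lay in 1 cell and 53.6% in the 5 cells with the most. In KS-like cells of Rux, 54 of 112 lay in 1 cell and 89.3% in the 5 cells with the most. The intervals do not cover this spread between cells. HM-like cells had 1.18, 7.90 and 2.12 CPM from 9, 94 and 24 UMIs, and in UV 55 of the 94 lay in 1 cell and 76.6% in the 5 cells with the most. LEC-like cells had 8.74, 6.03 and 22.9 CPM, with a log2 ratio of Rux over UV of 1.91 (1.23 to 2.65), and VEC-like cells 13, 10.01 and 7.14 CPM. MP-like cells had 81.5, 219.8 and 34.2 CPM, but from 43, 37 and 5 UMIs in 17, 9 and 3 cells.

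Among the receptors, Il1r1 was the broad stromal one. FB-like cells had 483, 710.5 and 628 CPM, a UMI was seen in 71.9, 79.9 and 81.6% of them, and they held 60.5, 77.8 and 86.4% of Il1r1 UMIs. With every cell thinned to 2000 UMIs the shares were 49.1, 56.9 and 52.3%. The log2 ratio of UV over CON was 0.56 (0.53 to 0.59) and of Rux over CON 0.38 (0.35 to 0.41), reduced to 0.36 and 0.18 with clusters weighted as in CON. In 5 of the 6 FB clusters compared UV was higher than CON with an interval above 0, and c1 was the exception at 1049.6, 866 and 843 CPM.

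PCY-like cells were at a similar Il1r1 level, 864, 783 and 548 CPM, with Rux the lowest of the 3. VEC-like cells had 453, 411 and 349 CPM, divided by cluster: c13, led by the venular genes Sele, Selp and Vwf, had 548, 635 and 447 CPM, and c24, led by the capillary genes Fabp4, Cd36 and Gpihbp1, 46.7, 39.4 and 61 CPM. The third cluster, c27, in which the pericyte gene Rgs5 leads beside Fabp4 and Flt1, had 427, 429 and 375 CPM. The gap between c13 and c24 was larger in each library than the differences between libraries within either cluster. Among GDT-like cells, cluster i11, led by Il17a and Il23r, had 346, 585 and 351 CPM of Il1r1, and i12, led by Trdc and Trdv4, had 11.8 CPM in the 88 cells of CON, with 3 cells in UV and 1 in Rux. KER-like cells were at 24.9, 39.4 and 50.7 CPM. The FB marker list summed to 564, 850 and 754 CPM in KER-like cells, and the part of fibroblast RNA in their Il1r1 was not tested.

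Il1r2, the decoy, was highest in neutrophil-like cells. They had 2487, 1957 and 2283 CPM, and DC/LC-like cells 428, 407 and 1015 CPM, a log2 ratio of Rux over CON of 1.25 (1.03 to 1.47). The dendritic and Langerhans-like cluster i6, led by MHC class II genes with Cd207 among its leading genes, showed the same with 460.2, 463 and 1145 CPM. MAC-like cells had 16.1, 54.8 and 66.8 CPM from 13, 39 and 65 UMIs. TREG-like cells had 167, 260.4 and 256 CPM in 11, 22 and 28 cells.

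In FB-like cells Il1r2 was at 148, 191 and 148 CPM. The log2 ratio of UV over CON was 0.37 (0.31 to 0.43), but -0.31 with clusters weighted as in CON, so the direction turned. Cluster c5, at 355, 380.2 and 307 CPM, made up more of the fibroblasts in UV. Within the 6 clusters compared UV was lower in 4 and higher in 1 with an interval that did not hold 0. For Rux over UV the log2 ratio with clusters weighted as in CON was 0.05. Of the 7 clusters compared there, 4 were higher and 3 lower in Rux with such an interval, from -0.38 to 2.07. KB-like cells had 104, 24.9 and 34.1 CPM from 846, 92 and 125 UMIs, lower in UV by a log2 ratio of -2.05 (-2.39 to -1.75). This rested on cluster c18, at 124, 24.5 and 47.7 CPM in 478, 24 and 77 cells, while c36, led by Stfa3 and Krt6a beside Krt5 and Krt14, had 22.4, 25 and 23.7 CPM, and the direction turned when doublets were kept and cells clustered again.

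Il1rap, without which neither IL1R1 nor IL1RL1 signals, was found in all the named classes of at least 50 cells. NEU-like cells had 515, 597 and 813 CPM, SCH-like cells 273, 272 and 173 CPM and FB-like cells 69.3, 65.3 and 63.3 CPM, with c11, led by Igfbp2, Col1a1 and Grem1, at 149, 114 and 94.4 CPM. No FB, KER or KB ratio of Il1rap reached 2-fold, and VEC-like cells had 17, 20.4 and 8.92 CPM, with a log2 ratio of Rux over UV of -1.16 (-1.96 to -0.50).

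**Figure D3:**
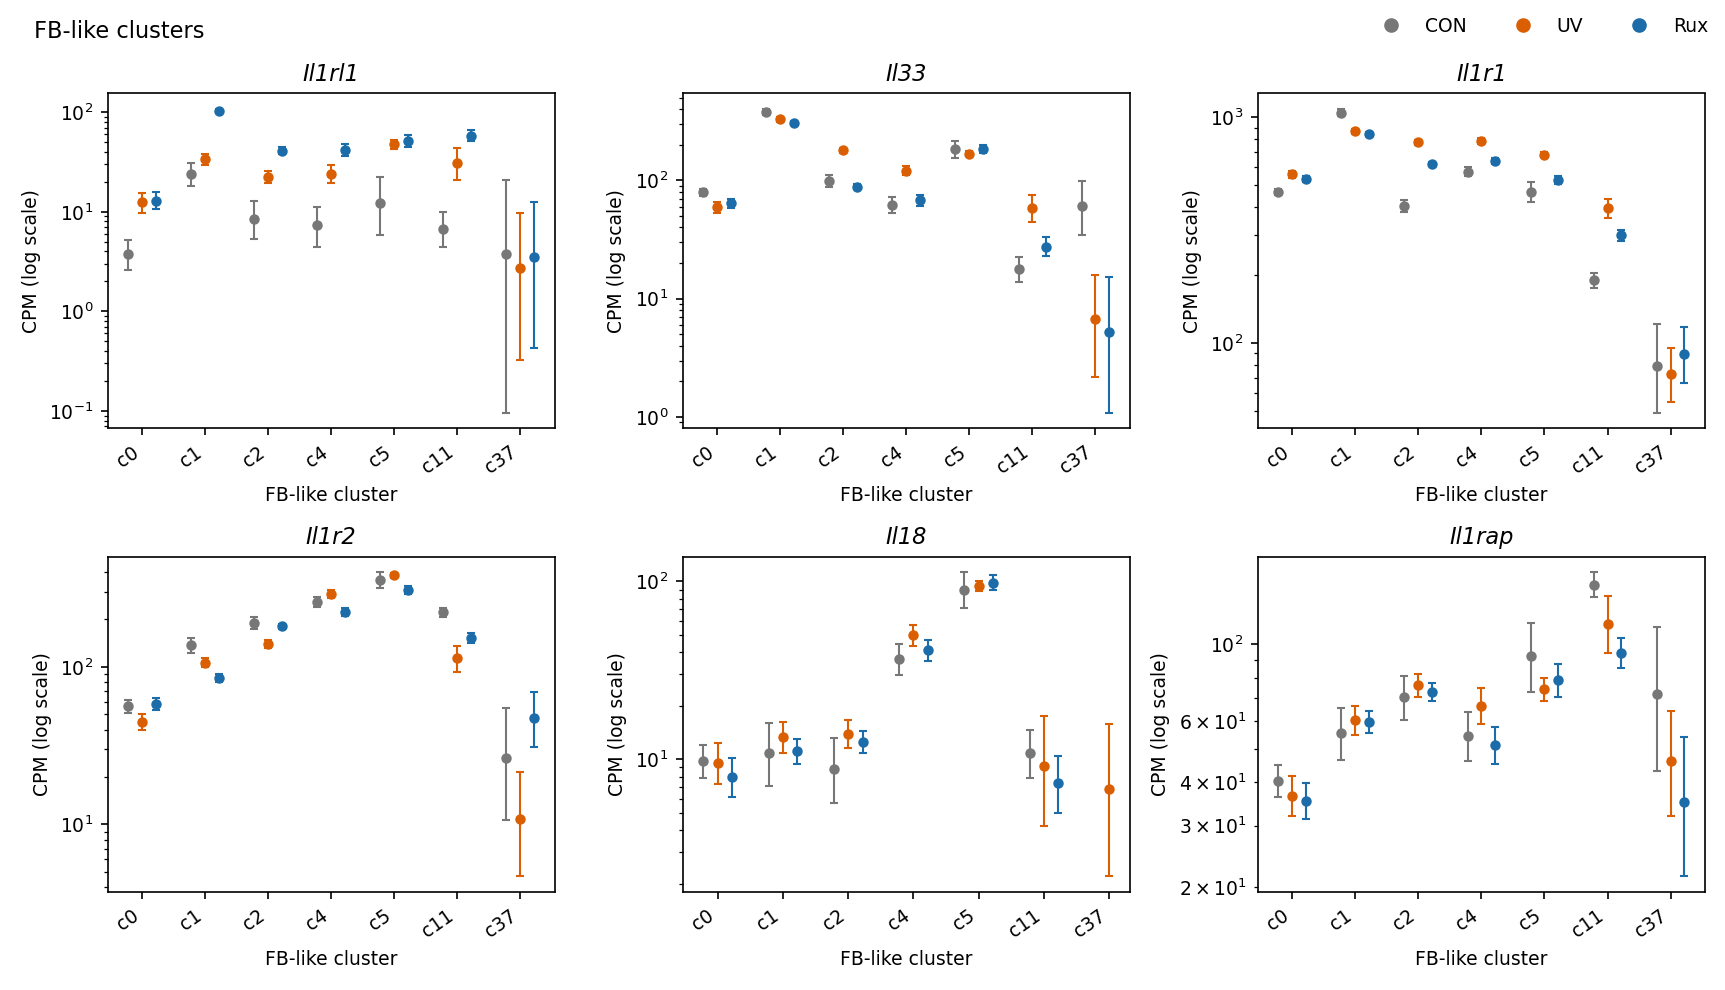
CPM (log axis) of Il1rl1, Il33, Il1r1, Il1r2, Il18 and Il1rap in the 7 fibroblast-like clusters and 3 libraries, with exact 95% Poisson intervals for counting error. Il1rl1 is lowest in CON in the 6 large clusters, while Il18 differs more between clusters than between libraries, with c5 at 89.7, 94.6 and 98.4 CPM.

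Il1rl1 was highest in the known responders to IL-33. MC-like cells had 709, 1231 and 1389 CPM from 55, 520 and 865 UMIs in 61, 170 and 208 cells, and 37.7, 80 and 82.7% of them had a UMI. The log2 ratio was 0.78 (0.39 to 1.22) for UV over CON and 0.96 (0.58 to 1.39) for Rux over CON. The depth of MC-like cells moved with it, with medians of 938, 1213 and 1652.5 UMIs per cell, and the part of depth in the share of cells was not tested. In i4, the cluster with the most MC-like cells in CON, Il1rl1 was at 782, 1495 and 1639 CPM. TREG-like cells had 1151, 928 and 885 CPM and ILC2-like cells 253, 474 and 458 CPM, both over fewer than 50 cells in each library. In these 2 classes the intervals of the 3 libraries overlapped.

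FB-like cells, by contrast, had little Il1rl1 in CON and more in both irradiated libraries. The level was 7.88, 29.1 and 54.6 CPM, from 170, 1085 and 2787 UMIs in 66, 269 and 435 cells. The share of cells with a UMI was 2.06, 5.51 and 9.40%, and 0.942, 2.76 and 4.25% with every cell thinned to 2000 UMIs. KER-like cells, which are not known for this receptor, were at 0.709, 3.20 and 4.15 CPM and LEC-like cells at 0.318, 0.670 and 1.27 CPM, below the FB-like level in each library. The rise itself was not particular to FB-like cells. With clusters weighted as in CON, log2 ratios in KER-like cells were 2.09 for UV over CON and 2.59 for Rux over CON, against 1.48 and 2.33 in FB-like cells. The 6 mast-cell markers of the MC list summed to 5.46, 29.1 and 35.8 CPM in KER-like cells, and their part there was not tested. In FB-like cells the unweighted log2 ratio was 1.88 (1.65 to 2.13) for UV over CON, 0.91 (0.80 to 1.01) for Rux over UV and 2.79 (2.57 to 3.02) for Rux over CON. Of all genes tested in FB-like cells, 13.9%, 9.49% and 14.8% lay at least 2-fold apart in these comparisons. Of the 8 family members with enough UMIs in UV over CON, Il1rl1 and Il18 were past that limit, both higher, as were 7.99% of all genes.

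The Il1rl1 difference was present within the fibroblast clusters. Weighting clusters as in CON gave log2 ratios of 1.48 for UV over CON, 0.85 for Rux over UV and 2.33 for Rux over CON. UV was higher than CON in 6 of 6 clusters compared, each with an interval above 0, and Rux was higher than UV in 6 of 6, of which 4 had an interval above 0. In c1 the level was 23.9, 33.7 and 103 CPM, in c5 12.1, 47.4 and 51 CPM, in c4 7.30, 24 and 41.7 CPM, in c2 8.46, 22.3 and 41 CPM and in c11 6.74, 30.6 and 58.3 CPM. Of the 6, c0, led by Thbs4 and Myoc, had the lowest level in each library, 3.75, 12.4 and 13 CPM, and the small cluster c37 was not compared, with 1, 2 and 2 UMIs. A few cells carried many of these UMIs, with up to 16, 47 and 150 in 1 cell.

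Markers of the other classes with this receptor were set beside these values. Over all FB-like cells the MC list of 6 genes summed to 4.96, 22.4 and 18.4 CPM, with 5, 6 and 6 of them above 0, higher in UV and Rux as Il1rl1 was, and the 5 genes of the TREG list summed to 18.8, 17.5 and 13.1 CPM. In the FB-like cells with an Il1rl1 UMI, the mast-cell gene Cpa3 was at 1.71, 7.16 and 2.67 CPM, against 0.571, 2.49 and 2.55 CPM in those without. In UV the interval of the cells with a UMI (4.31 to 11.2) lay above that of the rest (1.99 to 3.07), and the part of mast-cell RNA in the Il1rl1 value was not tested. Kit was at 0, 1.13 and 0.984 CPM and the T-cell gene Cd3e at 1.71, 0 and 0 CPM in the cells with a UMI. Col1a1, a fibroblast gene, was at 8416, 4462 and 6036 CPM in these cells. The 3' counts do not tell the soluble form of the receptor from the membrane form.

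**Figure D4:**
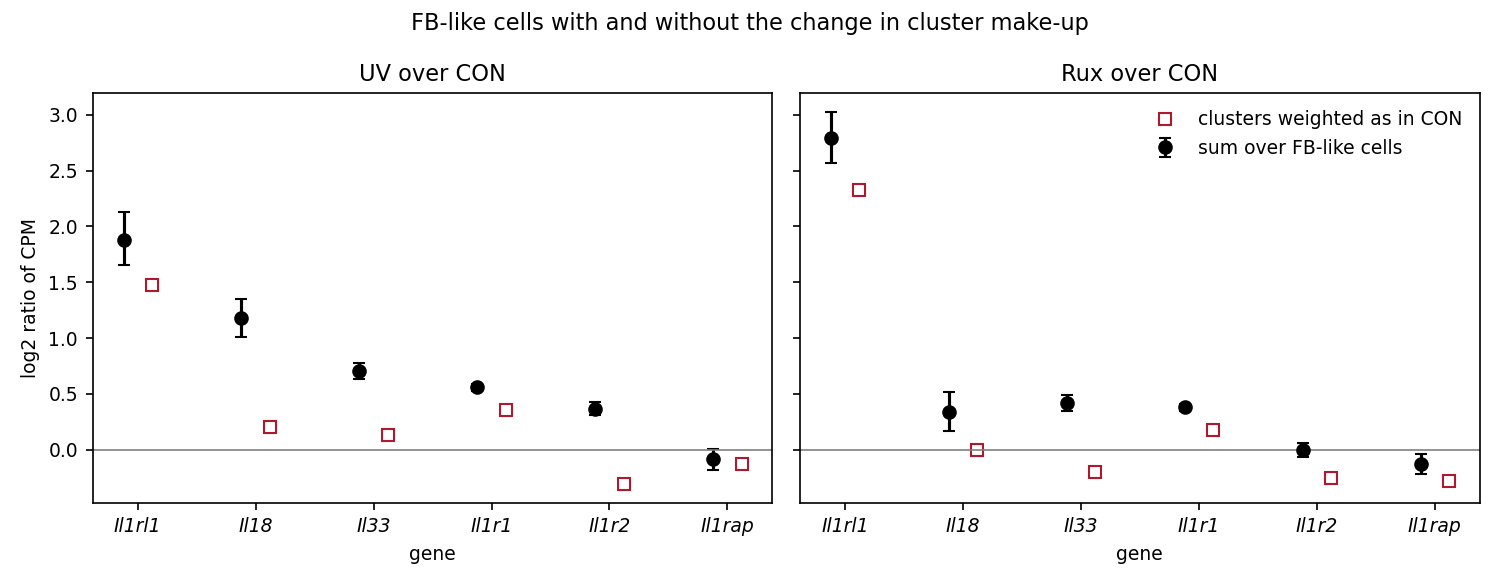
log2 ratio of 6 genes in fibroblast-like cells, UV over CON and Rux over CON, from the sums (black, with 95% counting interval) and with clusters weighted as in CON (open red squares). Il1rl1 stays above 1 in both panels under the weighting, Il18 in UV over CON moves from 1.18 to 0.20, and Il1r2 there moves from 0.37 to -0.31.

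**Figure D5:**
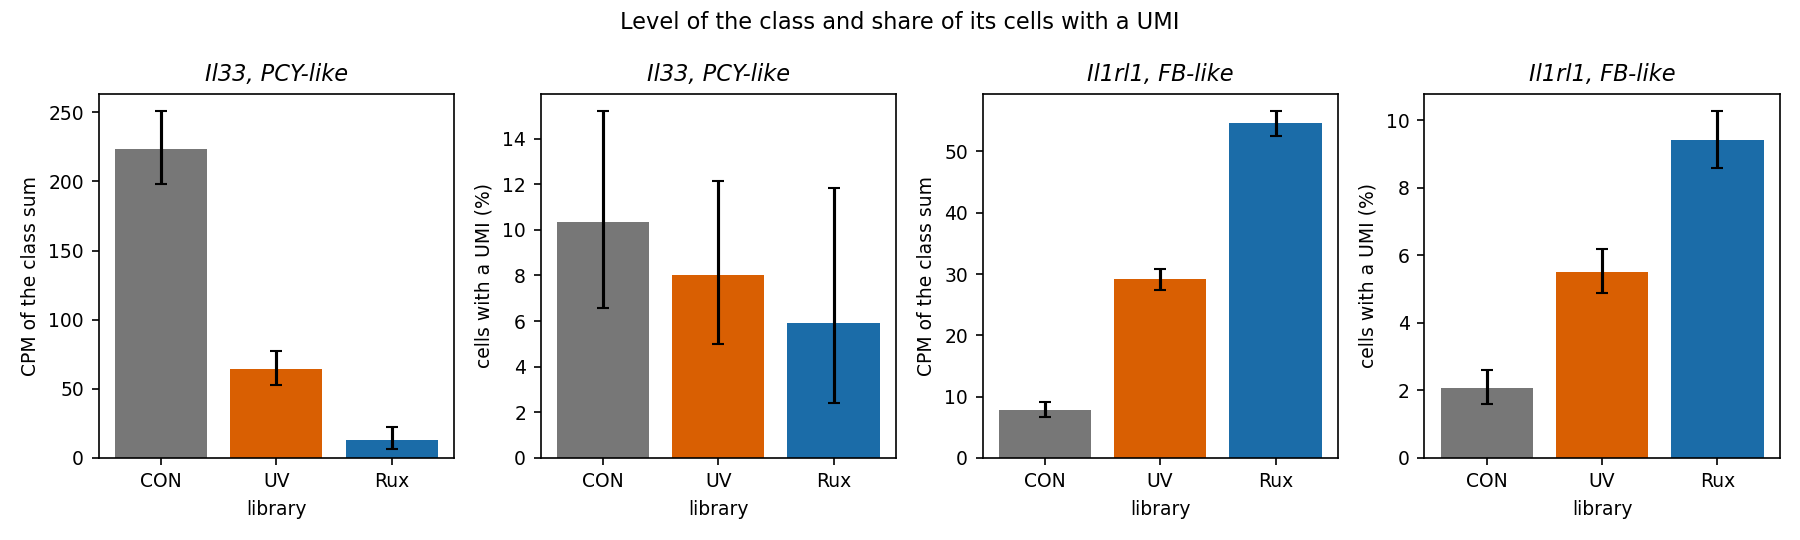
Level (CPM, with 95% Poisson intervals) and share of cells with a UMI (%, with exact 95% binomial intervals) of Il33 in pericyte-like cells and of Il1rl1 in fibroblast-like cells, by library. Il33 in PCY differs far more in level than in share of cells, 10.3, 8.03 and 5.93%, while level and share of Il1rl1 in FB are ordered alike, lowest in CON and highest in Rux.

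Counted over the family, pairs of a gene and a class with at least 20 UMIs in the 2 libraries together and 50 cells in each were compared with a 2-fold difference as the limit. Of these, 23 of 70 pairs were past it for UV over CON, 16 higher and 7 lower, which is 32.9% against 10.6% of all gene and class pairs (6.28% higher, 4.29% lower). For the other comparisons, 11 of 66 pairs were past it for Rux over UV, 7 higher and 4 lower, which is 16.7% against 7.07% of all gene and class pairs (2.48% higher, 4.59% lower), and 24 of 78 pairs were past it for Rux over CON, 17 higher and 7 lower, which is 30.8% against 13.7% of all gene and class pairs (6.37% higher, 7.31% lower). The comparisons share libraries, so their counts are not independent of each other. Several pairs rested on few UMIs, such as Il1r2 in TAB-like cells with 1, 24 and 13 UMIs. By class, HM-like cells held 5 of the pairs that were higher in UV than in CON (Il1a, Il1b, Il1r2, Il33 and Il1rl1, of 8 compared, against 7.34% of all genes), on at most 94 UMIs each in UV, of which 55 of the 94 of Il33 lay in 1 cell. The MC list summed to 7.23, 32.3 and 39.5 CPM in HM-like cells and the FB list to 307, 425 and 359 CPM, and their part in these pairs was not tested. Il1r2 was the gene with the most classes past the limit in UV over CON, 4 higher and 2 lower of 9, beside the 10.6% of all pairs. Among these, the direction in KB-like cells turned without doublet removal. In KER-like cells it turned there and at resolution 0.8, and the TAB-like pair had the few UMIs given above.

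The dissociation list, 10 immediate-early and heat-shock genes that respond to tissue handling, moved with library in FB-like cells. There 6 of 10 were at least 2-fold lower in UV than in CON, with a median log2 ratio of -1.23 beside -0.11 for all genes, of which 5.86% were as much lower. In Rux over CON it was 6 of 10 (median -1.04) against 9.15% of all genes, and in Rux over UV 0 of 10 against 7.19%. The part of handling in the FB-like values above was not tested.

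Of a list of other pathway genes, 40 were in the matrices. In FB-like cells 2 of 32 with enough UMIs were at least 2-fold higher and 1 lower in UV over CON (median log2 ratio -0.07, all genes -0.11), 4 higher and 2 lower of 33 in Rux over UV (0.17 against -0.04), and 5 higher and 5 lower of 33 in Rux over CON (0.06 against -0.13). Of all genes, 7.99% were higher and 5.86% lower in UV over CON, 2.3% and 7.19% in Rux over UV, and 5.62% and 9.15% in Rux over CON. The UV over CON counts are near these shares, and nothing is read from them. Saa3, an acute-phase target of IL-1, was at 67.4, 89.1 and 814 CPM and Lcn2, an iron-binding antimicrobial protein, at 6.12, 24.9 and 71.7 CPM. Il6 had 1125, 1159 and 510.3 CPM, and Tnfaip3, a brake on NF-κB, 299, 130.1 and 374 CPM, lowest in UV. Of the receptors, Il18r1 had 13, 145 and 105 UMIs. Casp4, an inflammatory caspase, was at 403, 237 and 152 CPM and Myd88, the adaptor of these receptors, at 83.9, 61.7 and 40.3 CPM.

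In KER-like cells 3 of 37 pathway genes were at least 2-fold higher and 0 lower in UV over CON (median 0.29, all genes -0.000773), near the 8.54% higher and 2.93% lower of all genes. In Rux over CON 8 of 37 were higher and 0 lower (0.40 against -0.03), against 8.25% and 6.2% of all genes. Saa3 was at 0.509, 16.3 and 44.4 CPM there and the neutrophil attractant Cxcl2 at 17.1, 28.4 and 58.7 CPM. The FB list summed to 564, 850 and 754 CPM in KER-like cells. The part of fibroblast RNA in the Saa3 value was not tested. HM-like cells had 6 of 31 higher in UV over CON, against 7.34% of all genes, among them Il1f9, which encodes IL-36γ, with 1, 42 and 12 UMIs, and Il1f5, the IL-36 receptor antagonist, at 5.26, 15.6 and 11.9 CPM. PCY-like cells had 3 of 25 lower in UV over CON, against 3.02% of all genes, and 5 of 24 lower in Rux over CON, against 7.21%, with a median of -0.37 in the latter against 0.04 for all genes. Il6 was at 2819, 2022 and 932 CPM and Ptgs2, the inducible cyclooxygenase, at 139.7, 59.3 and 42.1 CPM in these cells. NEU-like cells had 6 of 23 higher and 1 lower in Rux over CON, against 7.79% and 13.4% of all genes.

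The genes with the most similar pattern over 49 class and library sums of 22 classes, by Pearson correlation of log2(CPM + 1) among 15062 genes, are given as a description. These sums share libraries and classes. Il1a was nearest to Gm21188 (r = 0.898), Ankrd66 (r = 0.892) and Fcgr4 (r = 0.887), Il1b to Wfdc17 (r = 0.946), Mefv (r = 0.944) and Gm46224 (r = 0.926) and Il1rn to Cstb (r = 0.849), Il1a (r = 0.844) and Plbd1 (r = 0.833). Il1r1 was nearest to Il6 (r = 0.849), Cxcl1 (r = 0.801) and Pdgfrb (r = 0.796), and Il1r2 to Gm16894 (r = 0.84), Gm26535 (r = 0.835) and Ptgs2 (r = 0.828). Il33 was nearest to Fos (r = 0.773), Antxr1 (r = 0.77) and Dbp (r = 0.763), of which Fos is on the dissociation list, and Il1rl1 to Tpsab1 (r = 0.82), Stk32b (r = 0.81) and Gm47599 (r = 0.809). The values were lower for Il18, nearest to Cers6 (r = 0.73), Syk (r = 0.706) and Arap1 (r = 0.699), and for Il1rap, nearest to Rps6ka2 (r = 0.68), Adgb (r = 0.671) and Tesk2 (r = 0.661).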

How the data were processed

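Single-cell suspensions of full-thickness mouse dorsal skin were profiled with 10x 3' v3.1 chemistry. For each of 3 libraries the authors deposited a matrix of raw UMI counts per gene and cell, not normalized, made with Cell Ranger against mm10; the submitters' processing notes name version 6.1.2 and the matrix headers 7.0.0. Cells needed 200 genes and no more than 10% mitochondrial UMIs, and Scrublet (scanpy 1.11.5) doublets were removed at a rate of 0.8% for each 1000 cells. Seurat 5.3.0 normalized and clustered all libraries together (2000 variable genes without the 9 members and the pathway list, 30 principal components, resolution 1.5, no batch correction), and immune clusters, with a Ptprc UMI in at least 30% of cells, were clustered again at resolution 1. A cluster was named when at least 3 markers of a list were each detected in at least 10% of cells and the list led the next by at least 1 log2 unit. Where the next list was closer but related, the cluster took both names, or KER for epithelial lists. A cluster stayed unnamed if more of its 10 leading genes were on an unrelated list. The same held if its cells had low UMIs and none of the 10 was a marker of the list. These rules left out c3, with FB as first list and 663, 624 and 508 cells, and i13, with MAC as first list. They also left out c12, led by Lrrc15 and Col11a1, with 123, 208 and 384 cells. Its first list was FB, with PCY within 1 log2 unit, so the FB-like values do not include it. Cluster names that combine 2 classes, and KER, mark related lists that were not separated. In the KER clusters c6 and c7 the HM list scored first.

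UMIs were summed per class and library and compared as a log2 ratio of CPM with 0.5 UMI added to each sum. A pair of gene and class was compared with the limit of 2-fold when it had 20 UMIs in the 2 libraries together and 50 cells in each. No test across samples was possible with 1 library per condition, and cells were not used as replicates. To compare shares of cells, each cell was thinned to 2000 UMIs, which left out 1152, 1019 and 801 shallower cells in CON, UV and Rux. The interval code was tested on simulated data. The members, the gene lists and the markers were chosen with earlier results of these data known. Named genes were the 9 members, genes of the pathway list past 2-fold in a class described (at most 5 per direction), and the 3 genes most like each member. Myd88, Cpa3, Kit, Cd3e, Col1a1, Myh11, Il6 and the genes that lead clusters fall outside this rule in part and were named after their values were seen. Alternatives were a strict cell filter (500 genes, 5% mitochondrial UMIs), no doublet removal, equal weight per cell, resolution 0.8, scaling by the median of ratios, totals without keratin, haemoglobin and mitochondrial genes, a minimum of 5 UMIs and no thinning. Weighting clusters by their summed CON UMIs was chosen after seeing the data. Computations used Python 3.11.15, numpy 2.4.6, scipy 1.17.1, pandas 2.3.3, R 4.3.3 and matplotlib 3.10.9.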

Additional observations from a re-analysis of the deposited data

Results flagged for a closer look

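Il1a in the unnamed cluster i13, led by Spp1, Mmp13, Arg1 and Mmp12, lay in cells that no log2 ratio between libraries used. The MAC list scored highest in this cluster, at 6.25 against 2.80 for the next, the MONO list. It stayed unnamed because Arg1, the only listed marker among its leading genes, is on the ILC2 list. The MAC-like values therefore leave these cells out. With 0, 11 and 64 cells, the cluster also had fewer than 50 in CON and UV. The Il1a level of i13 in Rux was 975 CPM (897 to 1057), above the 218 CPM of NEU-like cells, the named class of at least 50 cells with the most Il1a in CON.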

How the results depend on the processing

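No paired analysis was possible because each condition had 1 library, and for the same reason no library could be left out. With at least 5 UMIs in place of 20, more pairs of gene and class entered, with few UMIs. Of these, 37 of 93 were past 2-fold in UV over CON, 22 of 91 in Rux over UV and 37 of 100 in Rux over CON. The share over all gene and class pairs is not given at this limit, so nothing is read from these counts. Under the other 6 settings the counts past 2-fold stayed within 1.5 times the reported ones. Without doublet removal the direction turned for Il1r2 in KB-like cells (0.16 for Rux over CON and 0.52 for UV over CON), Il1r2 in KER-like cells (-0.64 for UV over CON), Il1rl1 in KB-like cells (1.22 for Rux over CON) and Il1b in VEC-like cells (0.73 for Rux over CON). At resolution 0.8 it turned for Il1r2 in KER-like cells (-0.17 for Rux over CON and -0.96 for UV over CON), and with equal weight per cell for Il1r2 in LEC-like cells (-0.072 for Rux over UV). The cause was not tested. With clusters weighted as in CON, 20 of 93 log2 ratios moved beyond their counting interval. Directions also turned under this weighting, among them Il1r2 (-0.31 for UV over CON) and Il33 (-0.20 for Rux over CON) in FB-like cells. Few cells and UMIs limit the NEU, TREG, ILC2 and KS values, most of all in UV.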
